A study of Mus musculus with 2 samples.

Results

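The miRs counted here are those used as marks of blood cells, looked for in small RNA-seq of mouse sperm. They were chosen by name: miR-451a, miR-144, miR-486a and miR-486b for red cells, and miR-223, miR-142 (now miR-142a) and miR-150 for white cells, with every arm. This gave 12 of the 1886 mature miR entries in the deposited counts, 6 for each class. A hairpin can yield a mature miR from its 5′ side (5p) and from its 3′ side (3p), and each arm has its own entry. The 5p arms of miR-486a and miR-486b share 1 joined entry, called miR-486a/b-5p here, so their reads cannot be told apart.

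Sperm came from wild-type C57BL/6J mice, labelled naive and aged 3 months, and gave 2 libraries described as independent biological replicates. The sources used here do not say how many mice made up a library. Sperm swam out of the opened epididymis, and the pellet was treated with a detergent buffer aimed at epithelial and endothelial cells of the surrounding tissue. Replicate 1 held 4049599 miR reads and replicate 2 held 5648067, and abundances are given as CPM, the reads of a miR per 1000000 miR reads of its library. A count of 3 reads equals 0.741 CPM in replicate 1 and 0.531 CPM in replicate 2. With 1 condition there was no contrast to test, so the comparisons are between miRs and between the 2 libraries, and every interval covers counting error at 95% only. In RNA from a mixed sample, fewer cells of a type and less RNA per cell cannot be told apart.

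Red cells of mammals lose their nucleus as they mature and keep a small set of very abundant miRs. miR-451a and miR-144 are made from neighbouring hairpins under control of the erythroid factor GATA1, and miR-451a is unusual in that its hairpin is cut by AGO2 in place of Dicer. miR-486 lies in the gene of ankyrin 1, a protein of the red cell membrane skeleton, and is also abundant in skeletal and heart muscle. Among white cells, miR-223 marks neutrophils and other myeloid cells, miR-150 marks mature lymphocytes, and miR-142 is found in nearly all blood lineages.

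Mature sequences from RefSeq (GRCm38.p6) were matched for 8 of the 12 entries. The 6 of these with at least 10 reads over both libraries are shown, 5′ to 3′, with the seed (bases 2 to 8, which pair with targets) in capitals. No sequence was matched for miR-150-5p or for the entries of miR-486a and miR-486b.
miR-451a: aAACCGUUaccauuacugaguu
miR-144-3p: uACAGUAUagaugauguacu
miR-144-5p: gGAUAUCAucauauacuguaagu
miR-142a-5p: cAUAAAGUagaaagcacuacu
miR-142a-3p: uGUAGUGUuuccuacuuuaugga
miR-223-3p: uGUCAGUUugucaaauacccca

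No seed was shared within the 8 matched members, and none was found in any other of the 1679 mature sequences of the table. The sequences were poor in G and C, with a median GC content of 35.6% against 52.2% over the whole table. The lowest was 30% in miR-144-3p and the highest 63.6% in miR-150-3p.

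The red cell pair lies on the plus strand of chromosome 11 (GRCm38), with Mir144 at chr11:78073005-78073070 and Mir451a at chr11:78073170-78073241, 99 bases apart. The 2 hairpins are shown with their mature miRs in capitals, because the place of miR-451a differs from that of an ordinary arm.
Mir144: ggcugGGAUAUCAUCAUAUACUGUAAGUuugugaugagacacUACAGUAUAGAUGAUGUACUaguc
Mir451a: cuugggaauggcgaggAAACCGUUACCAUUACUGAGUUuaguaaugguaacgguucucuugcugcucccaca

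miR-144-5p takes bases 6 to 28 and miR-144-3p bases 43 to 62 of a hairpin of 66 bases, so they sit on opposite sides of its middle. miR-451a takes bases 17 to 38 of 72 and runs past the middle at base 36, into the loop. Mir144 overlaps no other annotated gene of GENCODE M21, and Mir451a overlaps only Mir451b on the opposite strand, whose miR had 0 reads in each library.

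The other hairpins are spread over the genome. Mir486 (chr8:23142555-23142682, plus strand) lies within an intron of Ank1, and the hairpin of miR-486b, annotated as Mir3107 (chr8:23142573-23142662), lies within it on the minus strand. Mir142 (chr11:87756864-87756927, plus strand) lies in an intron of the long non-coding RNA Mir142hg and overlaps Mir142b on the opposite strand, whose miR had 0 reads in each library. Mir223 (chrX:96242817-96242926, plus strand) lies in an exon of the non-coding gene F630028O10Rik, and Mir150 (chr7:45121757-45121821, plus strand) overlaps no other annotated gene.

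Blood cell miRs were present in both libraries, and 1 of them held nearly all of their reads. At least 1 read in each library was found for 9 of the 12 entries, while 20% of all 1886 entries met the same rule. Their summed share of all miR reads was 0.333% in one library and 0.722% in the other, with the higher value in replicate 2 and a mean of 0.528% ± 0.276 (SD, n = 2). miR-486a/b-5p alone made up 93.3% of these reads in replicate 1 and 95.4% in replicate 2.

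**Figure D1:**
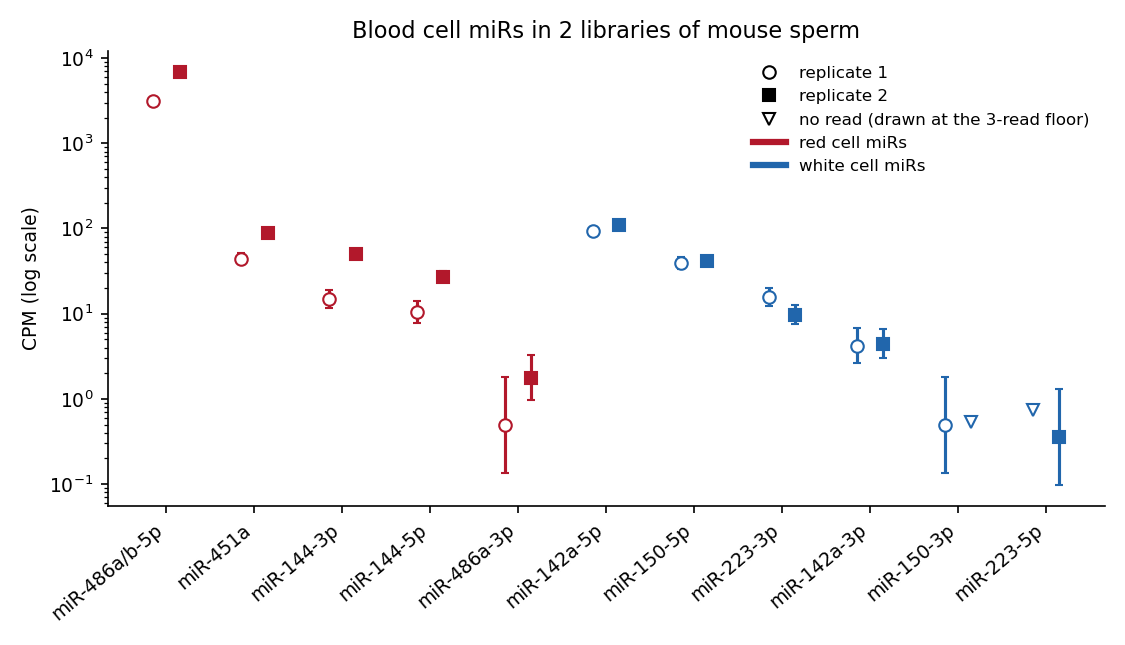
Abundance of the 11 blood cell entries with a read, in CPM on a log axis, with open circles for replicate 1, filled squares for replicate 2 and Wilson 95% intervals as bars. Triangles mark entries without a read, drawn at the level of 3 reads. miR-486a/b-5p lies at 3104 and 6891 CPM, and every other entry lies at or below 110.3 CPM.

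miR-486a/b-5p stood at 3104 CPM in replicate 1 (12569 reads, Wilson interval 3050 to 3158) and at 6891 CPM in replicate 2 (38920 reads, 6823 to 6959). By mean CPM it ranked 14th of the 378 miRs detected in both libraries. The 3p arm of miR-486a had 2 and 10 reads, and miR-486b-3p had none in either library, where the limit of 3 reads is 0.741 and 0.531 CPM. The reads of miR-486 therefore came almost wholly from the 5p arm.

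miR-451a, which is known to be very abundant in mature red cells, came far behind. It stood at 44.2 CPM in replicate 1 (179 reads, interval 38.2 to 51.2) and at 88.9 CPM in replicate 2 (502 reads, 81.4 to 97.0), and ranked 93rd. For each read of miR-451a there were 70.2 reads of miR-486a/b-5p in replicate 1 (exact interval 60.6 to 81.8) and 77.5 in replicate 2 (71.0 to 84.8). The intervals of this ratio overlap between the libraries.

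miR-144, the neighbour of miR-451a, was present with both arms. miR-144-3p stood at 14.8 CPM in replicate 1 (60 reads, interval 11.5 to 19.1) and at 49.6 CPM in replicate 2 (280 reads, 44.1 to 55.7). miR-144-5p stood at 10.4 CPM (42 reads, interval 7.67 to 14.0) and 27.3 CPM (154 reads, 23.3 to 31.9). The 3p arm had 1.82 reads for each read of the 5p arm in replicate 2 (exact interval 1.49 to 2.23), and in replicate 1 the ratio of 1.43 (0.947 to 2.17) could not be told from equal numbers. Neither arm's interval in replicate 1 reaches its interval in replicate 2.

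miR-451a and miR-144 did not keep a fixed proportion. miR-451a had 1.75 reads for each read of miR-144, both arms summed, in replicate 1 (1.37 to 2.26) and 1.16 in replicate 2 (1.02 to 1.32). The ratio in replicate 2 was 0.659 times that in replicate 1, with an interval of 0.495 to 0.875. Only counting error enters this interval, and with 1 library on each side it sets these libraries apart and nothing more.

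Among the white cell miRs, miR-142a-5p led. It stood at 93.1 CPM in replicate 1 (377 reads, interval 84.2 to 103) and at 110 CPM in replicate 2 (623 reads, 102 to 119), and ranked 76th, above miR-451a. The intervals of the 2 libraries overlap at their ends, and the abundance was 102 ± 12.2 CPM (SD, n = 2). miR-142a-3p had 17 and 25 reads, or 4.198 CPM (2.62 to 6.72) and 4.43 CPM (3.00 to 6.53).

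miR-150-5p, the lymphocyte miR, had overlapping intervals in the 2 libraries. It stood at 39.3 CPM in replicate 1 (159 reads, interval 33.6 to 45.9) and at 41.1 CPM in replicate 2 (232 reads, 36.1 to 46.7). Its opposite arm, miR-150-3p, had 2 reads in replicate 1 and none in replicate 2.

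miR-223-3p, the myeloid miR, was the member with fewer CPM in replicate 2 among those with at least 10 reads in all. It stood at 15.8 CPM in replicate 1 (64 reads, interval 12.4 to 20.2) and at 9.74 CPM in replicate 2 (55 reads, 7.48 to 12.7), so the intervals overlap. miR-223-5p had no read in replicate 1 and 2 reads in replicate 2. For each read of miR-223-3p there were 5.89 reads of miR-142a-5p in replicate 1 (4.51 to 7.80) and 11.3 in replicate 2 (8.59 to 15.2), while miR-142a-5p stood to miR-150-5p at 2.37 (1.96 to 2.87) and 2.69 (2.31 to 3.14).

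By mean CPM the order of the members was miR-486a/b-5p, miR-142a-5p, miR-451a, miR-150-5p, miR-144-3p, miR-144-5p, miR-223-3p, miR-142a-3p and miR-486a-3p. miR-486a/b-5p stood above all others in each library. The order below it changed between the libraries. miR-150-5p lay above miR-144-3p in replicate 1, at 39.3 against 14.8 CPM, and below it in replicate 2, at 41.1 against 49.6 CPM, where the intervals just overlap. miR-451a and miR-150-5p had overlapping intervals in replicate 1 and separate ones in replicate 2. miR-223-3p lay above miR-144-5p in replicate 1 with overlapping intervals, and below it in replicate 2 with separate ones.

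The hairpins differed in the arm that held their reads. In miR-142a the 5p arm took 95.7% of 394 reads in replicate 1 (Wilson interval 93.2% to 97.3%) and 96.1% of 648 reads in replicate 2 (94.4% to 97.4%). For miR-150 it took 98.8% of 161 reads (95.6% to 99.7%) and 100% of 232 reads (98.4% to 100%). For miR-223 the 3p arm held the reads, and the 5p arm took 0 of 64 reads, which at the limit of 3 reads allows up to 4.69%, and 3.51% of 57 reads (0.968% to 11.9%). miR-144 alone drew a large part of its reads from each arm, with 41.2% of 102 reads (32.1% to 50.9%) and 35.5% of 434 reads (31.1% to 40.1%) from the 5p arm. For each hairpin the intervals of the 2 libraries overlap.

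**Figure D2:**
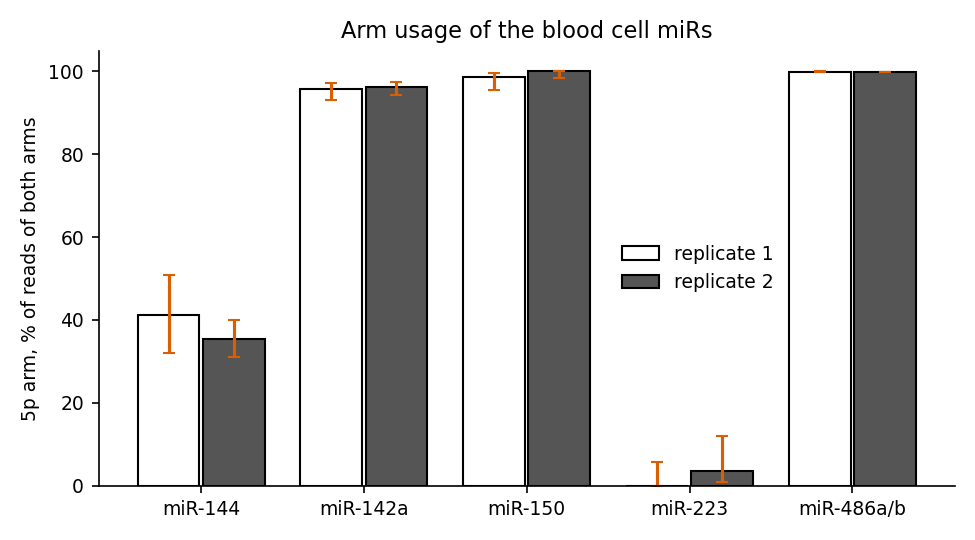
Share of the reads of each hairpin that came from its 5p arm, in percent, with open bars for replicate 1, filled bars for replicate 2 and Wilson 95% intervals. miR-142a, miR-150 and miR-486a/b lie above 95%, miR-223 below 4% and miR-144 at 41.2% and 35.5%. miR-451a has a single entry and is not drawn.

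Red cell miRs outnumbered white cell miRs through a single entry. The red cell entries summed to 12852 reads in the first library and 39866 in the second, a mean of 5116 ± 2747 CPM (SD, n = 2). The white cell entries summed to 619 and 937 reads, a mean of 159 ± 9.22 CPM (SD, n = 2). This gave 20.8 red cell reads for each white cell read in replicate 1 (exact interval 19.2 to 22.5) and 42.5 in replicate 2 (39.9 to 45.4). Such a ratio is formed within a library and does not depend on how the libraries are scaled.

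Without miR-486a/b-5p the order was lost. The 283 remaining red cell reads in replicate 1 stood at 0.457 for each white cell read (0.396 to 0.527), and the 946 in replicate 2 at 1.01 (0.921 to 1.11). White cell reads were thus the more numerous in replicate 1, and in replicate 2 the interval holds equal numbers. Without miR-142a-5p, the leading white cell entry, the ratio was 53.1 (46.8 to 60.6) and 127 (114 to 142.3).

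**Figure D3:**
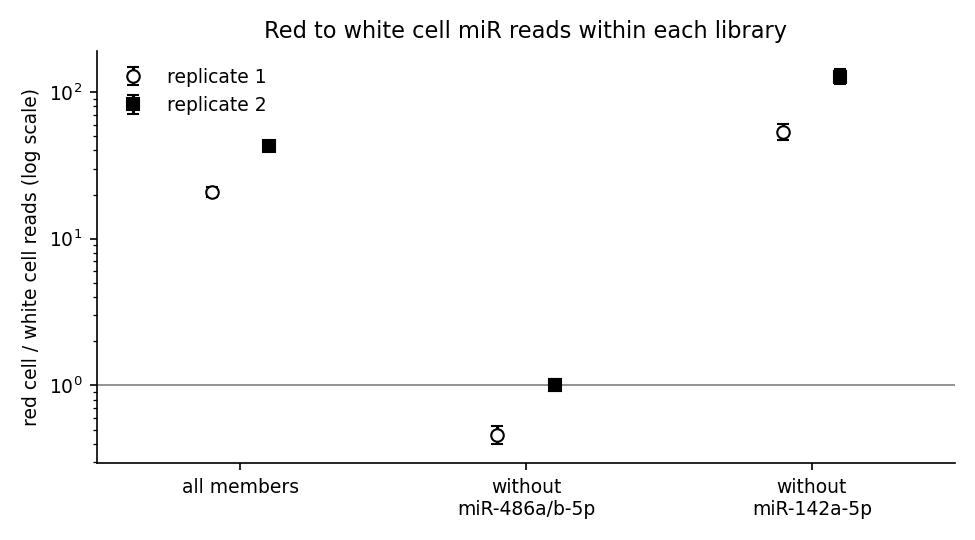
Red cell reads divided by white cell reads within each library, on a log axis, for all members and without the leading entry of either class. Circles stand for replicate 1, squares for replicate 2 and bars for exact 95% intervals, and the line marks equal numbers. The ratio is 20.8 and 42.5 with all members and 0.457 and 1.01 without miR-486a/b-5p.

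The 2 classes differed between the libraries in unlike ways. The red cell sum was 2.22-fold higher in replicate 2 (exact interval 2.18 to 2.27), a log2 ratio of 1.15, and the remaining red cell miRs without miR-486a/b-5p were 2.40-fold higher (2.10 to 2.75). The white cell sum stood at 1.09-fold in CPM (0.980 to 1.20), a log2 ratio of 0.12 whose interval holds 0. After TMM, a scaling described with the background of all miRs, it stood at 0.47 on the log2 scale. Its interval, moved by the same amount, then lies above 0. The red to white ratio itself was 2.05 times higher in replicate 2 (1.84 to 2.28), and 2.21 times higher without miR-486a/b-5p (1.86 to 2.62). These intervals compare 2 libraries of the same condition by their reads, and the spread between further libraries is not known from them.

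All entries with at least 10 reads over both libraries, 323 in number, served as the background. Their median log2 ratio of replicate 2 to replicate 1 was -0.29, and their quartiles were -0.93 and 0.15. TMM normalization, which sets libraries against the bulk of miRs and not the total, added 0.35 to every log2 ratio and brought the median to 0.06. At least 2-fold higher CPM in replicate 2 was found for miR-486a/b-5p, miR-451a and both arms of miR-144, 4 of 4 red cell entries, and for 0 of the 4 white cell entries, against 9.6% of all entries compared. miR-486a-3p was left out of this count, since its 2 and 10 reads reached the minimum only through replicate 2, where it is high. The entries counted are not independent. Both arms of miR-144 come from 1 hairpin that lies 99 bases from Mir451a, and both arms of miR-142a also come from 1 hairpin. At least 2-fold lower CPM was found for no member, against 22.3% of all. After TMM, which moves every ratio by the same amount, the counts were 4 of 4 and 0 of 4 higher and none lower, against 12.4% higher and 13.9% lower of all.

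These 4 red cell entries had log2 ratios between 1.01 and 1.74, with a median of 1.27, and the white cell entries had a median of 0.07, between -0.70 and 0.24. The value of miR-486a-3p, 1.84, has an interval that runs from -0.39 to 5.07. miR-144-3p was 3.35-fold higher in replicate 2 (2.52 to 4.50), miR-144-5p 2.63-fold (1.86 to 3.79), miR-486a/b-5p 2.22-fold (2.18 to 2.27) and miR-451a 2.01-fold (1.69 to 2.40), right at the limit of 2-fold. In contrast, miR-142a-5p stood at 1.18-fold (1.04 to 1.35), miR-150-5p at 1.05-fold (0.851 to 1.29) and miR-223-3p at 0.616-fold (0.422 to 0.898). In CPM the interval holds 1 for miR-150-5p and lies just above 1 for miR-142a-5p and below 1 for miR-223-3p. These readings depend on the scale. With the 0.35 of TMM added to each log2 limit, the interval of miR-150-5p lies above 1 and that of miR-223-3p holds 1.

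**Figure D4:**
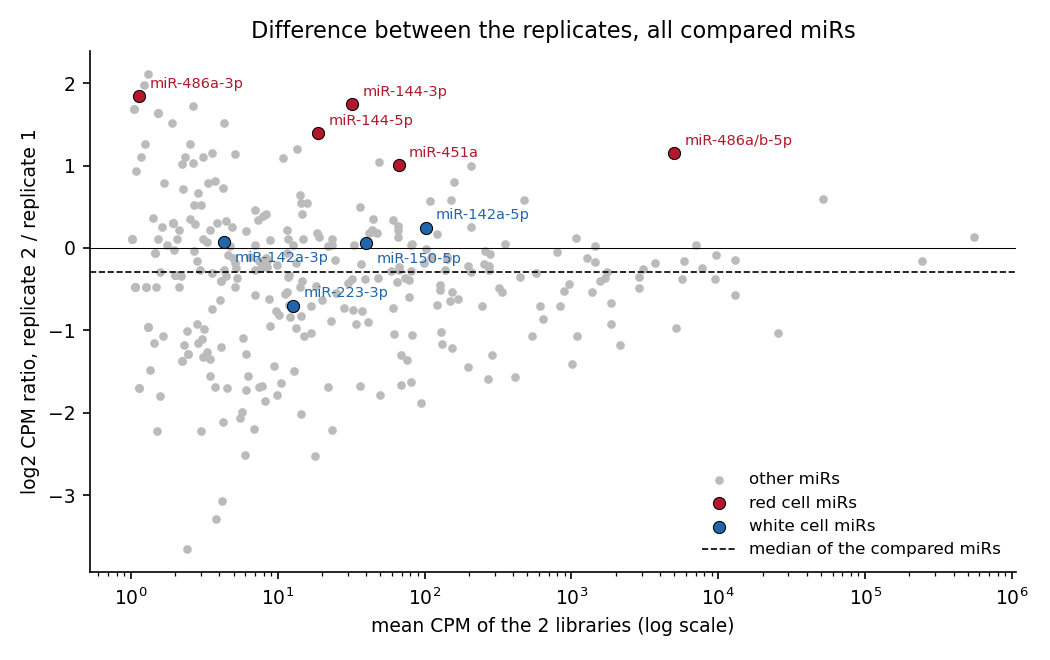
Log2 CPM ratio of replicate 2 to replicate 1 against mean CPM on a log axis, for the 318 of 323 compared entries with reads in both libraries. Red and blue points are the red and white cell miRs, grey points all others, and the dashed line is the median of -0.29. Of the 5 red cell points, 4 lie between 1.01 and 1.74, and the 4 white cell points lie between -0.70 and 0.24. The remaining red cell point is miR-486a-3p at 1.84, which has 2 and 10 reads and was left out of the counts.

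Low counts scatter widely, so the well-counted entries were also looked at alone. Of the 165 entries with at least 100 reads over both libraries, 7 were at least 2-fold higher in replicate 2, which is 4.24%, and 4 of these 7 were red cell miRs. miR-144-3p ranked 1st, miR-144-5p 2nd, miR-486a/b-5p 4th and miR-451a 7th by this ratio. The other 3 were miR-181c-3p with a log2 ratio of 1.20, miR-322-5p with 1.09 and miR-181d-5p with 1.04. The white cell miRs ranked 23rd (miR-142a-5p), 39th (miR-150-5p) and 120th (miR-223-3p).

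The miRs most like each member were sought as those with the nearest log2 ratio among entries of at least 100 reads and a mean CPM within 4-fold. With 2 libraries such likeness rests on 1 ratio per miR. miR-451a lay nearest to miR-205-5p, which differed from it by -0.01, and to miR-181d-5p, which differed by 0.04. miR-205-5p is an epithelial miR. Of the 11 compared epithelial entries, 2 had more CPM in replicate 2, against 34.1% of all. On the TMM scale 7 of the 11 were higher, against 53.9% of all. Of 100 candidates, miR-150-5p lay nearest to miR-181b-5p (difference -0.016), then miR-135a-5p (-0.024) and miR-126a-3p, a miR of endothelium and platelets (-0.025). The nearest to miR-142a-5p was the joined entry of miR-199b-3p and miR-199a-3p, at 0.007. For miR-223-3p it was miR-196b-5p, at -0.0009. For miR-486a/b-5p the nearest of 23 candidates, miR-99b-5p, differed by -1.12, so no miR of like abundance had a ratio near its own. The nearest to miR-144-3p of 90 candidates, miR-181c-3p, still differed by -0.54.

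Other miRs known from blood were counted for comparison. The list of miR-16, miR-92a, miR-25, miR-363 and miR-185, which are abundant in red cells and made in many other cells, had 8 entries, of which 4 were compared, and all 4 had fewer CPM in replicate 2, as did 65.9% of all entries compared. After TMM all 4 were still lower, against 46.1% of all. Entries with a copy number in their name were outside the list. Among them miR-92a-1-5p, with 10 and 24 reads, went the other way at a log2 ratio of 0.78. miR-16-2-3p, with 23 and 14 reads, stood at -1.20. The entries of the list summed to 4076 CPM in replicate 1 and to 2054 CPM in replicate 2, a log2 ratio of -0.99 (-0.64 after TMM). miR-16-5p, its most abundant entry, had 9818 and 7195 reads, or 2424 and 1274 CPM. At least 2-fold lower CPM was found for 2 of the 4 entries, against 22.3% of all, and for 0 of them after TMM, against 13.9%.

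The list of other white cell miRs, miR-155, miR-146a, miR-342, miR-181a and miR-15b, summed to 4566 CPM in replicate 1 and to 3628 CPM in replicate 2, with 7 of its 9 entries detected in both. The log2 ratio was -0.33, and 0.02 on the TMM scale. Its most abundant entry was miR-181a-5p, with 3361 and 2808 CPM, a miR made in many tissues beside lymphocytes. Of its 6 entries compared, 1 was at least 2-fold lower in replicate 2, near the 22.3% of all, and 1 at least 2-fold higher, against 9.6% of all. The latter, miR-342-5p, had 3 and 13 reads and reached the minimum only through replicate 2. miR-126a-3p, the miR of endothelium and platelets, had 325 and 466 reads, or 80.3 and 82.5 CPM, and the other 3 entries of miR-126a and miR-126b had at most 1 read in a library. miR-122-5p, made in liver and present in plasma, had 2 reads and 0 reads.

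Because miR-486 is also a muscle miR, the skeletal muscle miRs miR-1a, miR-133a, miR-133b, miR-206 and miR-499 were set beside it, a list added after the values had been seen. Of its 9 entries 2 were detected in both libraries, miR-133a-3p with 17.3 and 19.7 CPM and miR-1a-3p with 4.94 and 3.90 CPM, and miR-206-3p had 0 and 2 reads. The other 6 entries had no read. Together they summed to 22.2 and 23.9 CPM, or 90 and 135 reads, a ratio of 1.08 (0.818 to 1.42). miR-486a/b-5p was 2.22-fold higher in replicate 2. The part of muscle in the miR-486 reads was not tested.

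Lists of other cell types also differed between the libraries. The smooth muscle list, miR-143 and miR-145a, had 3 of 4 entries detected, all 3 with more CPM in replicate 2 on either scale, against 34.1% of all entries compared in CPM and 53.9% after TMM, and a sum of 41086 and 62279 CPM, of which miR-143-3p held 40849 and 61894. The epithelial list had 12 of 14 entries detected and a sum of 10812 and 8859 CPM. Of its 11 entries compared, 2 had more CPM in replicate 2, miR-205-5p among them, and 7 were higher after TMM. The germ cell list, led by miR-34c-5p with 2983 and 1314 CPM, had 11 of 17 entries detected, all 11 lower in replicate 2 on either scale, against 65.9% of all in CPM and 46.1% after TMM, and a sum of 4207 and 1746 CPM. Its entries miR-449a-3p, miR-741-3p, miR-743b-5p, miR-871-5p and miR-880-5p had no read. The remaining entry, miR-883a-5p, had 0 reads in replicate 1 and 4 in replicate 2. The red cell sum was therefore below the germ cell sum in replicate 1, at 3174 CPM, and above it in replicate 2, at 7058 CPM. This change of order rests on miR-486a/b-5p. Without that entry the red cell sum was 69.9 and 167 CPM, below the germ cell sum in each library. The part of these cell types in the difference of the red cell miRs was not tested.

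**Figure D5:**
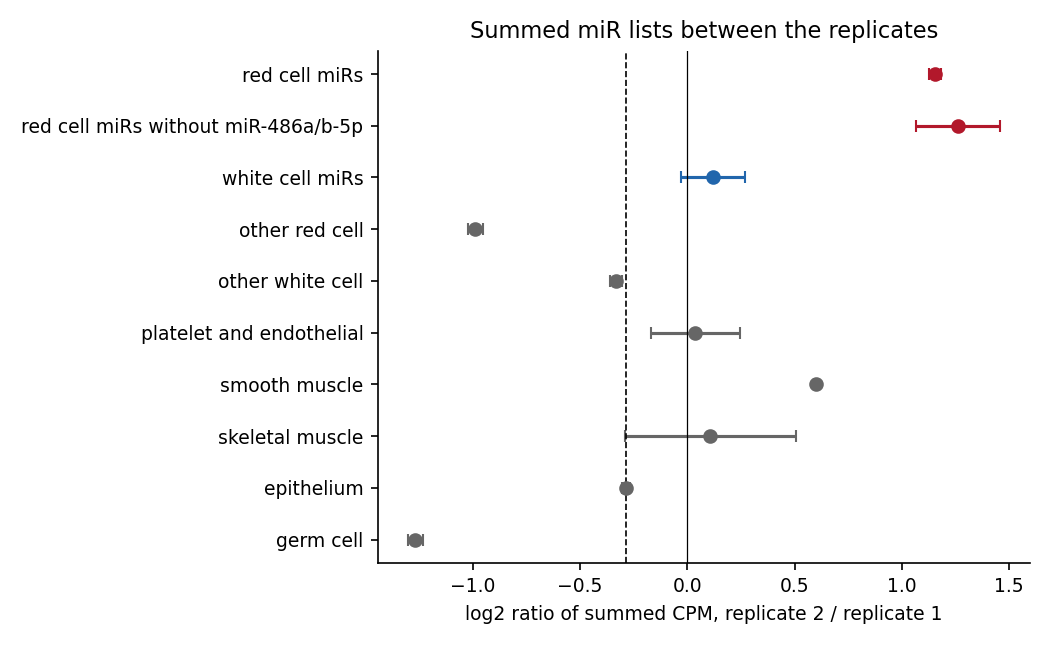
Log2 ratio of summed CPM, replicate 2 to replicate 1, for the blood cell classes (red and blue) and for lists of other miRs (grey), with exact 95% intervals. The skeletal muscle list was added after the values had been seen. The solid line marks 0 and the dashed line the median of all compared entries, -0.29. The red cell sums lie at 1.15 and 1.26, the white cell sum at 0.12, the other red cell list at -0.99 and the germ cell list at -1.27.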

How the data were processed

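Per the labels and methods, the authors trimmed reads by quality, removed adapters with cutadapt 1.8.1 and mapped with Bowtie 1.1.2, first to miR and piRNA sequences without mismatches. HTSeq and the build mm10 (GRCm38) are also named in the submitters' processing notes. The deposited values are raw read counts per mature miR, 1 table per library, not pooled. Of the 1886 entries 12 join several miRs. The 5 summary entries were left out, of which reads assigned to no miR (38.1% and 26.3% of all reads listed) were above 0. Reads with added or changed bases are lost where no mismatch is allowed, and reads on near-identical miRs are uncertain. The names of the deposited tables speak of a treatment and the labels of naive mice, which was not resolved. The labels name a TruSeq RNA kit (v2) and the methods small RNA libraries made with a TruSeq kit, and which protocol made the libraries was not resolved either.

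CPM, ratios and their Wilson or exact intervals were computed in scipy 1.17.1 and pandas 2.3.3 (Python 3.11.15, numpy 2.4.6), and figures with matplotlib 3.10.9. TMM factors came from edgeR 4.0.16 and size factors from DESeq2 1.42.0 (R 4.3.3). No test across libraries was possible. The ratio and its interval were tested on simulated data with counting error only. That test therefore says nothing about the spread between libraries. Reads carry no molecular identifiers. The members and lists were chosen with earlier results of these data known. Every member was named, and of other miRs the most abundant of each list and the 3 nearest in ratio to each member with at least 100 reads were the candidates for naming. miR-181c-3p, miR-322-5p, miR-181d-5p, miR-92a-1-5p, miR-16-2-3p, the other listed miRs with values and the 2 antisense miRs were named after their values were seen.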

Additional observations from a re-analysis of the deposited data

How the results depend on the processing

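The alternatives were scaling, denominators, entries left out, read minimums, thinning to equal depth, pseudocounts and each library alone. The red cell sum of 5116 CPM became 25181 CPM with miR-10a-5p and miR-10b-5p taken out of the denominator and 119 CPM without miR-486a/b-5p, which is also its only joined entry. The white cell sum of 159 CPM became 108 CPM of all reads in the tables, 770 CPM without the 2 miR-10 entries in the denominator and 57.7 CPM without miR-142a-5p. The log2 ratio of the libraries for the red cell sum, 1.15, was 1.504 with TMM and 1.496 with DESeq2 scaling, 1.41 over all reads, 1.32 without the miR-10 entries and 1.26 without miR-486a/b-5p. For the white cell sum it was 0.12, and 0.47, 0.46, 0.37 and 0.28 under these scalings and denominators, but -0.10 without miR-142a-5p. The mean log2 ratio of red to white reads, 4.89 ± 0.73 (SD, n = 2), was -0.56 without miR-486a/b-5p, 6.36 without miR-142a-5p and 0.035 for the medians over detected entries. Detection held for between 7 and 10 entries. Among single members, miR-142a-3p went from 0.076 to -0.033 with a pseudocount of 5 reads, while miR-451a at 0.98 and miR-486a-3p at 0.62 then lay under 2-fold, and no other of the 9 members compared changed sign under TMM, DESeq2 scaling or the pseudocounts. Each library alone gave 3174 and 7058 CPM for the red cell sum and 153 and 166 CPM for the white cell sum. No alternative without a replicate gives a ratio between libraries. Where no construction shows the cause, it was not tested. With 2 libraries of 1 condition, depth limits the entries under 20 reads, and the spread between mice was not measured beyond this pair.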
